A study of Mus musculus with 12 samples.

Results

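The effect of verteporfin (VP) on 3T9MycER cells that received no 4-hydroxytamoxifen (OHT) was measured by RNA-seq in 2 VP libraries and 2 libraries of cells given the solvent DMSO. The members of this comparison were all genes whose mean over these 4 libraries was at least 0.5 RPKM, that is reads scaled to gene length and library total, and they numbered 11084 of the 21671 genes in the table. Fxyd5 lay just inside that minimum at 0.50016 RPKM and Npm2 just outside it at 0.49957 RPKM. 3T9MycER cells are immortalised mouse embryonic fibroblasts with a Myc fused to an estrogen receptor domain, and all groups carry the fusion, which needs OHT to act. VP was used at 20 µM for 8 hours. Where the same drug comparison is given with OHT, it sets 2 VP + OHT libraries against 2 DMSO + OHT libraries, out of 12 libraries in the whole series. The series describes the fibroblasts as quiescent and confluent, whereas the accompanying methods describe serum-starved cells below confluence, so the state of the culture is not settled here. None of the sources says that the replicates came from separate cultures, and the p-values below then measure only the spread between these libraries, which may be technical.

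Verteporfin is a porphyrin used as a light-activated drug, and in the dark it disturbs the contact between YAP and the TEAD proteins. YAP and its relative TAZ are coactivators without a DNA-binding domain of their own. They reach their target genes by binding TEAD factors, and the kinases of the Hippo pathway hold them back in the cytoplasm when cells are crowded or under low tension. In fibroblasts, genes with TEAD sites include secreted matrix and growth factor genes as well as genes of proliferation.

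Library totals were not given and were worked out from the intact RPKM values. They were between 26124435 and 30856488 reads in the 4 libraries, with 30.6% to 34% of reads in genes. Reads in genes, and the reads given below for single genes, were rebuilt from the RPKM values, these totals and gene lengths. The log2 values of replicates correlated at 0.9939 in VP and 0.9944 in DMSO across genes, which are not independent replicates. Values of 1 or more had lost their decimal sign, and closeness of the 2 replicates of a group helped to place it. The correlations and the spread within groups are therefore not independent of that step. Replicates differed by more than read sampling. RNA was not selected for poly(A) tails, so nuclear and non-polyadenylated transcripts are in the values. No library exceeded 1.78 reads per base in genes of at least 1000 bases. Placing the decimal sign counted against high levels, so this maximum may be partly set by that step. Whether the values have a ceiling was not tested, which touches the 1265 genes at 20 RPKM or more in VP or DMSO. Tests were made with limma on log2(RPKM + 1), with Benjamini-Hochberg adjustment over the 11084 genes and a threshold of 0.05. Because of the added 1, log2 changes understate the change of low genes. In these bulk samples, fewer cells with a transcript and less of it per cell cannot be told apart.

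VP changed most of the transcriptome of these fibroblasts. Genes of the interferon and NF-kB responses, immediate early genes, amino acid stress genes and ribosome biogenesis factors were among the genes that rose. Genes for matrix proteins, their folding enzymes, growth factor receptors, Wnt and BMP signalling and the tested Hoxa genes were among those that fell. The test called 7607 genes (68.6%), of which 3051 (27.5%) were higher and 4556 (41.1%) lower with VP. The 2 libraries of each group did not overlap for 3846 genes higher with VP (34.7%) and 5349 genes lower with VP (48.3%), 83.0% in either direction. Among the called genes, 449 had a log2 change over 1 and 881 under -1, while 89 were over 2 and 81 under -2. The median log2 change was -0.08 over all genes tested. Under median-ratio scaling it was 0.01 and 48.8% of the calls were higher, and under quantile normalization it was 0.02 and 51.3% of the calls were higher, against 40.1% with RPKM as deposited. The medians and counts of the gene lists below therefore stand beside a median of -0.08 and shares of 27.5% higher and 41.1% lower. Of all genes tested, 197 reached the minimum only through the VP libraries, and 164 of these were called higher. Another 357 reached it only through the DMSO libraries, and 331 of these were called lower. The list counts include such genes and are a description only.

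**Figure D1:**
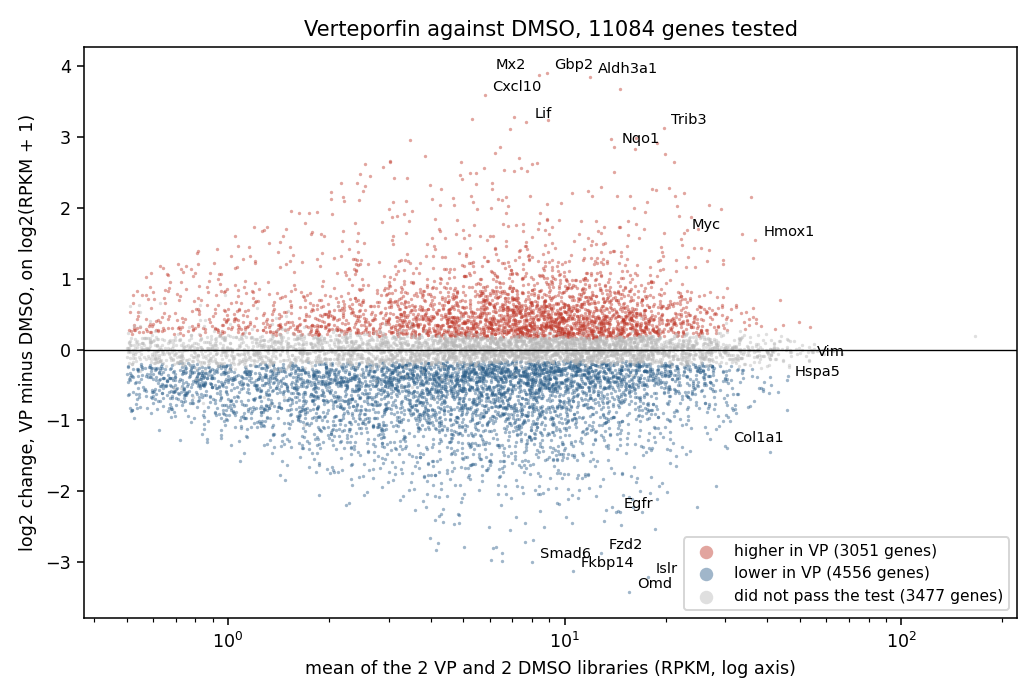
Log2 change, VP minus DMSO on log2(RPKM + 1), against the mean RPKM of the 4 libraries (log axis), with each of 11084 genes as a point and the called genes in colour. Of these, 3051 lie above 0 and 4556 below it, and 449 called genes lie above 1 while 881 lie below -1.

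The genes with the largest rises included several outside the pathways described below. Gch1, the entry enzyme of tetrahydrobiopterin synthesis, stood at 10.4 and 10.5 RPKM in VP libraries, against 0.27 and 0.128 RPKM in DMSO libraries (log2 change 3.26, adjusted p = 1.7e-10). Ereg, a ligand of the EGF receptor, stood at 29.3 and 30.2 RPKM in VP, against 3.41 and 2.39 RPKM in DMSO (log2 change 2.99). In each of these genes both VP libraries lay several-fold above both DMSO libraries, and the spread within a pair was small beside that gap. Among the largest falls was Smad6, an inhibitor of BMP signalling, at 1.1 and 0.902 RPKM in VP, against 15.8 and 14.3 RPKM in DMSO (log2 change -3.00, adjusted p = 1.5e-09). Agt, the precursor of angiotensin, stood at 0.74 and 0.437 RPKM in VP, against 12.7 and 10.2 RPKM in DMSO (log2 change -2.97). Cd248, a surface protein of stromal cells, stood at 0.493 and 0.568 RPKM in VP, against 9.89 and 9.2 RPKM in DMSO (log2 change -2.78). Ppp1r3c, which targets a phosphatase to glycogen, fell by 2.99 on the log2 scale.

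**Figure D2:**
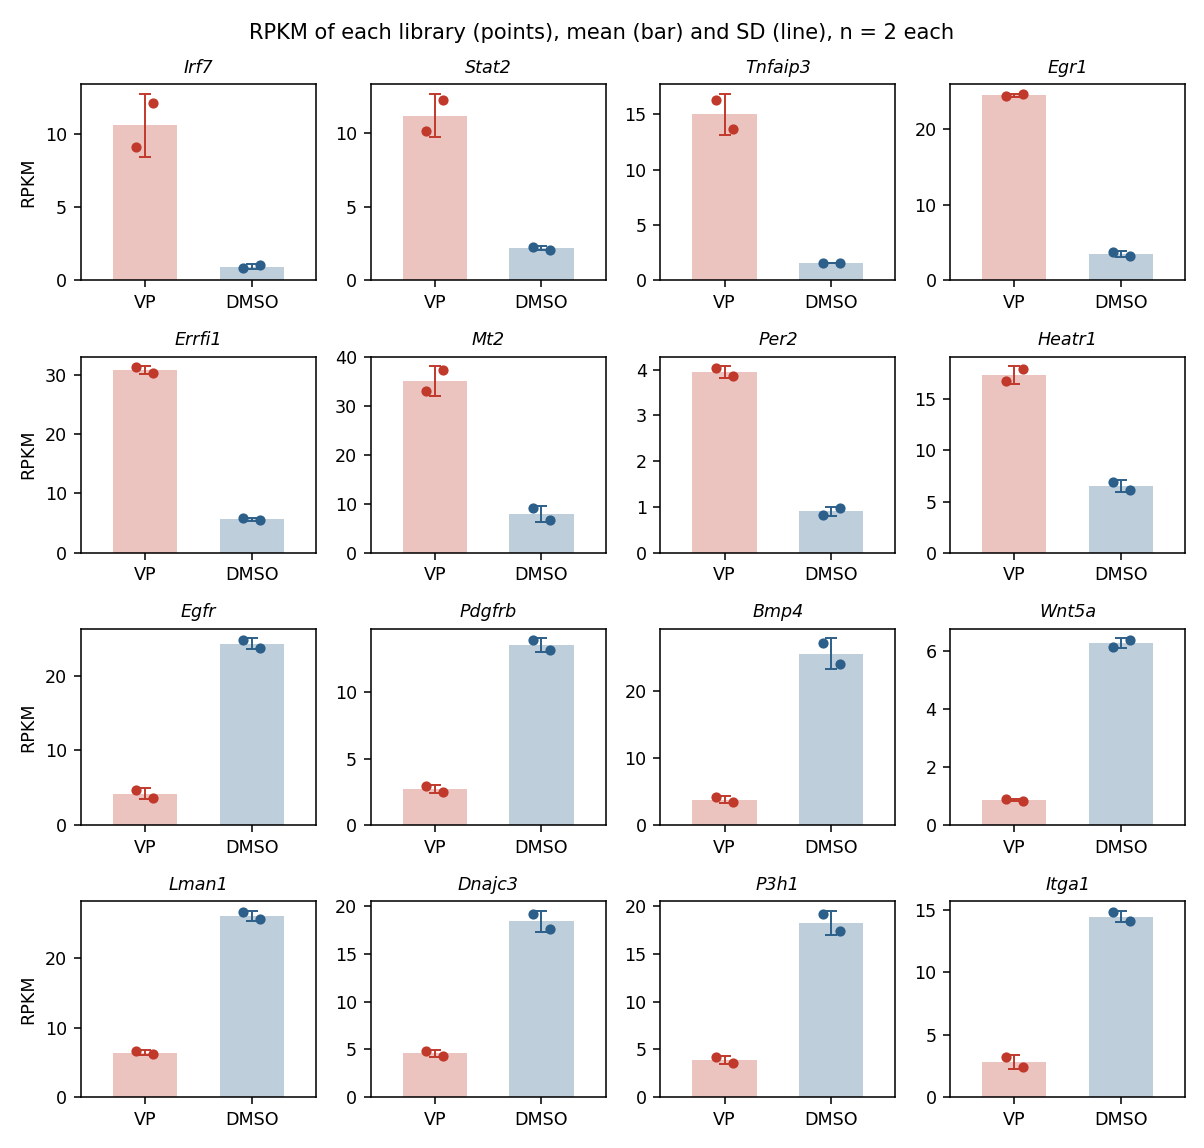
RPKM in the 2 VP and 2 DMSO libraries for genes from the lists described in the text, with points for libraries, bars for means and lines for the SD (n = 2 each). In genes that rose, such as Irf7 at 9.08 and 12.1 RPKM in VP, against 0.826 and 1.06 RPKM in DMSO, as in genes that fell, such as Egfr at 4.71 and 3.65 RPKM in VP, against 24.8 and 23.7 RPKM in DMSO, the libraries of the groups did not overlap.

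The YAP-TEAD side of the comparison was mixed. Of 29 tested genes from a list of YAP-TEAD targets, 19 fell and 6 rose, with a median log2 change of -0.40. Of the 29, 1, Edn1, reached the minimum only through the DMSO libraries, and without a minimum 18 of 31 fell and 5 rose. Thbs1, a secreted matrix glycoprotein, stood at 23.6 and 19.3 RPKM in VP, against 61.7 and 58.2 RPKM in DMSO (log2 change -1.45, adjusted p = 6.9e-07). Edn1, the vasoconstrictor peptide endothelin, stood at 0.442 and 0.359 RPKM in VP, against 4.83 and 3.74 RPKM in DMSO (log2 change -1.91), and Crim1, a membrane protein that binds BMPs, fell by 1.13. Not all targets moved this way. F3, tissue factor, stood at 31.7 and 31.9 RPKM in VP, against 19.3 and 17.5 RPKM in DMSO (log2 change 0.76), and Foxf2, a forkhead factor of mesenchyme, rose by 0.91. Of the short list most often used as a readout, Cyr61 did not pass the test (log2 change -0.10, adjusted p = 0.5). It stood at 44 and 47.3 RPKM in VP, against 49.7 and 48 RPKM in DMSO. The highest mean among genes of at least 1000 bases was 62.9 RPKM, and whether values at such levels are capped was not tested. Ctgf stood at 17.4 and 13.8 RPKM in VP, against 22.6 and 19.4 RPKM in DMSO (log2 change -0.41, adjusted p = 0.037), a call that was lost under other scalings and without some libraries.

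The transcripts of YAP, TAZ and Tead1 did not pass the test. Yap1 stood at 7.6 and 7.96 RPKM in VP, against 8.59 and 8.14 RPKM in DMSO (adjusted p = 0.22), and Wwtr1, which encodes TAZ, stood at 20.2 and 20.8 RPKM in VP, against 18.7 and 17.4 RPKM in DMSO (adjusted p = 0.052). Tead4 stood at 2.76 and 3.05 RPKM in VP, against 4.31 and 4.02 RPKM in DMSO (log2 change -0.40, adjusted p = 0.00066). Of 25 tested Hippo pathway components, 12 fell and 3 rose, and 0 rose without VP replicate 1 or without DMSO replicate 2, while 5 rose under either other scaling. Their median was -0.15, beside -0.08 over all genes. The share that fell lay near the 41.1% of all genes, and nothing particular to this list is read from it. The largest falls were in Fat4, an atypical cadherin upstream of the pathway in flies and mice, at 8.37 and 6.43 RPKM in VP, against 31.1 and 30.7 RPKM in DMSO (log2 change -1.93), and in Amot, a scaffold that holds YAP at junctions, which fell by 1.34. Vgll3 and Vgll4, which compete with YAP for TEAD, fell by 0.93 and 1.01, and Amotl2 by 0.88. The letters GGAATG, the core of a TEAD site, were searched on both strands in the 250 bases before the RefSeq start of each gene. They occurred in 8 of 18 targets with a promoter and in 10.3% of the 8593 tested genes with one.

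Genes of the interferon response rose with VP. All 32 tested antiviral genes of the list and all 11 tested interferon-inducible GTPases were called higher, with medians of 1.48 and 2.24. Of these, 15 and 8 reached the expression minimum only through the VP libraries, so these counts are a description only. Without an expression minimum, 39 of 42 antiviral genes and 15 of 17 GTPases were called higher, beside 19.5% of all genes. Igtp, a GTPase that acts on the vacuoles of intracellular parasites, stood at 11.2 and 14.3 RPKM in VP, against 1.42 and 1.33 RPKM in DMSO (log2 change 2.52, adjusted p = 9.9e-09). Irgm1, a regulator of the same GTPase family, stood at 29.4 and 33.6 RPKM in VP, against 6.52 and 5.13 RPKM in DMSO (log2 change 2.26). Isg15, a ubiquitin-like modifier, stood at 11.3 and 15 RPKM in VP, against 0.544 and 0.701 RPKM in DMSO (log2 change 3.11). Gbp and Ifit genes have close copies, and reads shared between them make their single values uncertain. Parp14 and Trim21, further interferon-responsive genes, rose by 2.43 and 1.77.

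The factors that carry the interferon signal rose too. Irf7, the factor that amplifies type I interferon production, averaged 10.6 ± 2.15 RPKM in VP and 0.944 ± 0.166 RPKM in DMSO (SD, n = 2 each, log2 change 2.57, adjusted p = 4.1e-09). Stat2, a transducer of the type I interferon signal, stood at 10.2 and 12.2 RPKM in VP, against 2.28 and 2.09 RPKM in DMSO (log2 change 1.93), and its partner Irf9 rose by 1.42. Ifnb1, interferon beta itself, was low, with 29 and 33 reads in VP libraries, against 2 and 1 reads in DMSO libraries, or 1.22 and 1.64 RPKM in VP, against 0.097 and 0.0459 RPKM in DMSO (log2 change 1.18, adjusted p = 8.4e-07). Of 29 tested JAK-STAT and IRF genes, 19 rose and 6 fell. Of the 29, 3 reached the minimum only through the VP libraries, Ifnb1 among them, and without a minimum 20 of 31 rose and 6 fell. Among the falls, Ifngr1, a chain of the interferon gamma receptor, stood at 8.96 and 8.02 RPKM in VP, against 13.5 and 11.7 RPKM in DMSO (log2 change -0.52), and Tlr4, the sensor of bacterial lipopolysaccharide, fell by 0.48.

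Of 17 tested genes of MHC class I antigen presentation, 11 rose and 3 fell, and 3 of the 17 reached the minimum only through the VP libraries. H2-K1, a class I heavy chain, stood at 10.8 and 13.6 RPKM in VP, against 5.21 and 4.71 RPKM in DMSO (log2 change 1.15), and its reads may be shared with other H2 genes. Psmb10, an immunoproteasome subunit, rose by 1.11 and Nlrc5, the activator of class I genes, by 1.20. The 3 genes that fell were the ER chaperones of the pathway, Pdia3 by 1.05, Calr by 0.61 and Tapbp by 0.45.

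The interferon-stimulated response element, ISRE, was searched as GAAA, any 2 bases and GAAA on both strands of the same 250 bases. It occurred in 8 of 9 interferon-inducible GTPases with a promoter, in 5 of 21 antiviral genes and in 2.56% of the 8593 tested genes with one. Stretches around the matches are shown because the genes that carry them had among the largest rises of the comparison, with the matching bases in capitals. The sequences are RefSeq promoters on GRCm38.p6, written 5′ to 3′ along the gene's strand, and none of the expression values uses those coordinates. Gbp2 (chr3:142620586-142620631, plus strand), Gbp3 (chr3:142559987-142560032, plus strand), Igtp (chr11:58199504-58199549, plus strand), Irgm1 (chr11:48871421-48871462, minus strand), Isg15 (chr4:156200857-156200902, minus strand) and Cxcl10 (chr5:92349075-92349120, minus strand) read as follows.
Gbp2: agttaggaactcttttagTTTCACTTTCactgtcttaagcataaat
Gbp3: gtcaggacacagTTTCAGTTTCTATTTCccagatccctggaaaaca
Igtp: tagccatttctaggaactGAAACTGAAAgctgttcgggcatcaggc
Irgm1: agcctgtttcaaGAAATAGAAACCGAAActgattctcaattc
Isg15: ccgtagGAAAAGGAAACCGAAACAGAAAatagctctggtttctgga
Cxcl10: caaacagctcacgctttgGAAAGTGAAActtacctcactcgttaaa
The match in Gbp2 is in the opposite orientation to that in Igtp, and Isg15, Gbp3 and Irgm1 hold overlapping matches. Gbp3, named here for its promoter, stood at 4.01 and 4.55 RPKM in VP, against 0.0522 and 0.0247 RPKM in DMSO. A match is a description of the letters and not a binding site.

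Genes of the NF-kB system rose with VP without exception among those that passed. Of 24 tested subunits and feedback genes, 20 rose and 0 fell, with a median log2 change of 1.20, while 4 did not pass. Of the 24, 2 reached the minimum only through the VP libraries, and without a minimum 19 of 25 rose and 0 fell. Tnfaip3, the deubiquitinase A20 that ends the signal, stood at 16.3 and 13.6 RPKM in VP, against 1.55 and 1.56 RPKM in DMSO (log2 change 2.64, adjusted p = 7.1e-09). Nfkbie, an inhibitor of the IkB family, stood at 20.4 and 19.7 RPKM in VP, against 4.07 and 2.89 RPKM in DMSO (log2 change 2.24). Relb, a subunit of the noncanonical pathway, rose by 2.16 and Nfkbia, the classical inhibitor, by 0.81.

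Of 21 tested chemokines and cytokines, 16 rose and 2 fell, with a median of 1.61. Of the 21, 6 reached the minimum only through the VP libraries, so these counts are a description only, and without a minimum 20 of 33 rose and 2 fell, with a median of 0.57. Cxcl10, which attracts T cells, had 524 and 449 reads in VP libraries, against 3 and 0 reads in DMSO libraries. Ccl5, another T cell attractant, stood at 12.5 and 14.3 RPKM in VP, against 1.62 and 0.865 RPKM in DMSO (log2 change 2.70). Csf3, the granulocyte growth factor, stood at 5.16 and 4.61 RPKM in VP, against 0.0274 and 0.0778 RPKM in DMSO (log2 change 2.48). In these genes the DMSO libraries lay at a few reads, or well below the VP libraries. Nos2, inducible nitric oxide synthase, had 611 and 550 reads in VP libraries and 0 reads in both DMSO libraries. The genes of the list that fell were Cxcl12, which holds stem cells in stromal niches, at 2.22 and 2.1 RPKM in VP, against 4.78 and 4.69 RPKM in DMSO (log2 change -0.86), and Tnfsf9, which fell by 0.52.

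The letters of an NF-kB site, GGGA, any base and TTTCC on either strand, occurred in 3 of 11 chemokine and cytokine promoters, in 2 of 18 promoters of the NF-kB list and in 0.326% of all 8593. The stretches of Nfkbia (chr12:55492649-55492694, minus strand), Cxcl1 (chr5:90891156-90891201, plus strand) and Il6 (chr5:30013052-30013097, plus strand) are shown, with the match in capitals. These genes were named because they hold the match.
Nfkbia: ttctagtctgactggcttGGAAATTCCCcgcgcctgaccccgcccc
Cxcl1: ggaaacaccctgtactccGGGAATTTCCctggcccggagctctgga
Il6: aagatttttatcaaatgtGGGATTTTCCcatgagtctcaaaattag
Cxcl1, a neutrophil attractant, stood at 54.2 and 63.9 RPKM in VP, against 12.5 and 12.4 RPKM in DMSO (log2 change 2.16), and Il6 had 123 and 99 reads in VP libraries and 0 reads in both DMSO libraries. Csf1, the macrophage growth factor, holds the match as well and did not pass the test, at 24.1 and 22.8 RPKM in VP, against 24.5 and 21.6 RPKM in DMSO (adjusted p = 0.81).

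Immediate early genes and the feedback genes of the ERK pathway rose. Of 31 tested genes of the AP-1, Egr and related families, 26 rose and 1 fell, with a median of 1.47. Of the 31, 2 reached the minimum only through the VP libraries, and without a minimum 27 of 33 rose and 1 fell. Egr1, a zinc finger factor induced within minutes of growth factor signals, stood at 24.4 and 24.7 RPKM in VP, against 3.78 and 3.19 RPKM in DMSO (log2 change 2.51, adjusted p = 1.1e-09). Klf4 stood at 11.5 and 12.5 RPKM in VP, against 1.4 and 1.1 RPKM in DMSO (log2 change 2.53), and Atf3, a stress-induced bZIP factor, at 36 and 38 RPKM in VP, against 7.26 and 3.43 RPKM in DMSO (log2 change 2.65). Arc, best known from neurons, rose by 2.76. Of 18 tested feedback genes of ERK and MAPK signalling, 13 rose and 4 fell. Errfi1, an inhibitor of the EGF receptor, stood at 31.2 and 30.3 RPKM in VP, against 5.78 and 5.45 RPKM in DMSO (log2 change 2.27). Spry2 and the ERK phosphatase Dusp6 rose by 1.83 and 1.37. Against them, Dusp7 stood at 4.59 and 3.83 RPKM in VP, against 12.5 and 11.6 RPKM in DMSO (log2 change -1.33), and Spry1 fell by 0.92. Myc, whose reads may include those of the MycER transgene, stood at 33.7 and 35.9 RPKM in VP, against 10.6 and 10.2 RPKM in DMSO (log2 change 1.65).

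**Figure D3:**
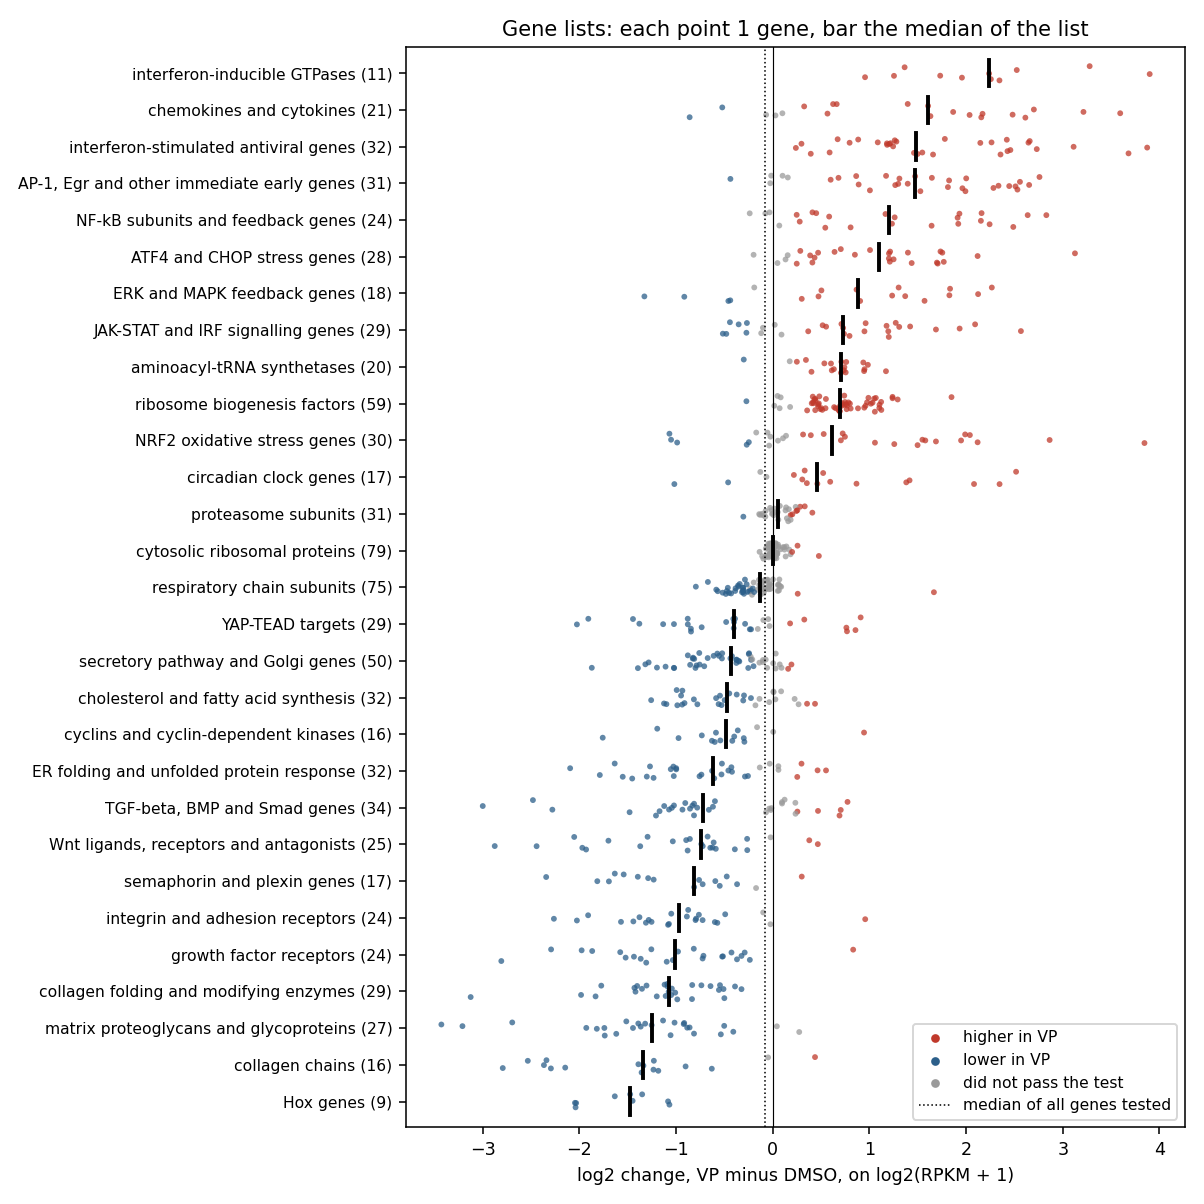
Log2 change, VP minus DMSO, of the tested members of the gene lists, with each gene as a point, a bar at the median of the list and a dotted line at the median of all genes, -0.08. The points of the NF-kB list run mostly right of 0, with 20 of 24 called higher, and those of the collagen enzymes lie left of it, with 29 of 29 called lower.

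The amino acid arm of the stress response rose while the folding arm of the endoplasmic reticulum fell. ATF4 and CHOP are factors of the integrated stress response that switch on genes of amino acid supply. Of 28 tested genes on their list, 24 rose and 0 fell. Ddit3, which encodes CHOP, stood at 39 and 44.1 RPKM in VP, against 17.8 and 17.1 RPKM in DMSO (log2 change 1.20), Slc7a11, the cystine transporter, at 7.44 and 6.96 RPKM in VP, against 0.977 and 0.802 RPKM in DMSO (log2 change 2.12), and Ppp1r15a, which restores translation after stress, rose by 1.74. Aminoacyl-tRNA synthetases load amino acids on tRNAs. Of 20 tested, 18 rose and 1 fell, and Cars stood at 24 and 26.5 RPKM in VP, against 11.5 and 9.84 RPKM in DMSO (log2 change 1.17), while Qars fell by 0.30. Amino acid transporters split, with 7 of 17 higher, led by Slc7a11, which is on this list too, and followed by the glycine transporter Slc6a9 at 1.37, and 5 lower, led by the taurine transporter Slc6a6 at -2.03.

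The CHOP and ATF4 element was searched as TGATGNAA on both strands. It occurred in 5 of 26 promoters of the ATF4 list, in 3 of 12 synthetase promoters and in 1.77% of all 8593. Shown are Asns (chr6:7693210-7693250, minus strand), Chac1 (chr2:119351031-119351074, plus strand), Aars (chr8:111033712-111033755, plus strand) and Gars (chr6:55037953-55037996, plus strand), named for the match, which is in capitals.
Asns: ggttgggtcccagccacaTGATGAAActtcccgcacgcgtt
Chac1: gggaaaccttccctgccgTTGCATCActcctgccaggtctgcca
Aars: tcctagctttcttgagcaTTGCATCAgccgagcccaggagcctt
Gars: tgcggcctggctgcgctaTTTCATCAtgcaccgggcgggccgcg
Asns, asparagine synthetase, stood at 37.4 and 41.6 RPKM in VP, against 15.3 and 13.4 RPKM in DMSO (adjusted p = 2.5e-07). Chac1, which degrades glutathione, rose by 1.71, and Aars and Gars rose by 0.76 and 0.71. Nupr1 and Pycr1 hold the match too and did not pass the test, with log2 changes of 0.15 and 0.05.

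In the endoplasmic reticulum list, 24 of 32 tested genes fell and 4 rose, with a median of -0.62. Dnajc3, a cochaperone of BiP, averaged 4.6 ± 0.358 RPKM in VP and 18.4 ± 1.12 RPKM in DMSO (SD, n = 2 each, log2 change -1.79, adjusted p = 2.7e-09). Creb3l2, a membrane-bound factor that drives secretory genes, stood at 1.42 and 1.09 RPKM in VP, against 8.38 and 8.86 RPKM in DMSO (log2 change -2.10), and Sel1l, an adaptor of ER-associated degradation, fell by 1.55. The exceptions included Herpud1, another gene of that degradation, at 33.8 and 36.8 RPKM in VP, against 26.5 and 24.2 RPKM in DMSO (log2 change 0.46). Hspa5, the chaperone BiP, stood at 38.3 and 39.5 RPKM in VP, against 54.6 and 50.8 RPKM in DMSO (log2 change -0.43, adjusted p = 0.0065), and without DMSO replicate 1 it did not pass. Transport out of the ER went the same way, with 36 of 50 secretory pathway and Golgi genes lower and 2 higher. Lman1, the cargo receptor of ER exit, stood at 6.64 and 6.16 RPKM in VP, against 26.6 and 25.6 RPKM in DMSO (log2 change -1.87), and Tmed10 and Mia3, which is needed to export procollagen, fell by 1.32 and 1.20.

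The ER stress response element, ERSE, spelled CCAAT, any 9 bases and CCACG on either strand, is rare in promoters. It occurred in 13 of the 8593 genes (0.151%), of which 9 were among the 25 ER genes with a promoter, while 10 of the 13 genes were called lower and 2 higher. Among those called higher was Derl3, a factor of ER-associated degradation, low at 0.728 and 0.63 RPKM in VP, against 0.419 and 0.397 RPKM in DMSO (log2 change 0.25, adjusted p = 0.028), a call lost without VP replicate 1 or either DMSO library. The stretches of Hspa5 (chr2:34772007-34772061, plus strand), Hsp90b1 (chr10:86705515-86705569, minus strand), Dnajc3 (chr14:118937809-118937863, plus strand), Creld2 (chr15:88819502-88819556, plus strand) and Pdia6 (chr12:17266473-17266527, plus strand) show its parts, with the match in capitals.
Hspa5: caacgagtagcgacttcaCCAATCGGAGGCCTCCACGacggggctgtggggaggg
Hsp90b1: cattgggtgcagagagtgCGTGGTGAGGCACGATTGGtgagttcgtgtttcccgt
Dnajc3: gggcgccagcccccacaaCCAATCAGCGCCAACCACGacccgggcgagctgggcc
Creld2: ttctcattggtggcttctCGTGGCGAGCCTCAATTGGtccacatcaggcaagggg
Pdia6: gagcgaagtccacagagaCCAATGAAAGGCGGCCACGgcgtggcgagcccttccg
Hsp90b1, the ER form of Hsp90, stood at 15.7 and 14.7 RPKM in VP, against 32.3 and 30.4 RPKM in DMSO (adjusted p = 8e-07), and Creld2 and Pdia6, named for the match like it, fell by 1.03 and 1.02. Canx and Syvn1 hold the match as well and fell by 0.76 and 0.63.

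Genes of the matrix and the cell surface fell. Of 29 tested enzymes that fold and modify collagen, 29 fell, with a median of -1.08. P3h1, a prolyl hydroxylase of collagen, stood at 4.18 and 3.57 RPKM in VP, against 19.2 and 17.4 RPKM in DMSO (log2 change -1.98, adjusted p = 2.9e-09), and P4ha3 and the lysyl hydroxylase Plod1 fell by 1.83 and 1.77. Of 16 tested collagen chains, 14 fell and 1 rose. Col1a1 stood at 16.5 and 16.4 RPKM in VP, against 43.3 and 44 RPKM in DMSO (log2 change -1.36), and Col11a1, a fibrillar chain that sets fibril width, at 5.19 and 4.34 RPKM in VP, against 33.1 and 31.5 RPKM in DMSO (log2 change -2.53). Col16a1 and Col12a1, chains on the surface of fibrils, fell by 2.37 and 2.29. Col18a1, the source of endostatin, went the other way, at 1.39 and 1.3 RPKM in VP, against 0.755 and 0.709 RPKM in DMSO (log2 change 0.44).

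Of 27 proteoglycans and matrix glycoproteins, 25 fell and 0 rose, and 3 of the 27 reached the minimum only through the DMSO libraries. Without a minimum 32 of 38 fell and 1 rose. Among those that fell was Aspn, at 11.8 and 10.5 RPKM in VP, against 46.2 and 44.2 RPKM in DMSO (log2 change -1.93). Proteases were less uniform, with 19 of 29 lower and 6 higher. Of the 29, 3 reached the minimum only through the VP libraries, Mmp13 among them, and 1 only through the DMSO libraries. These counts are a description only. With a minimum of 2 RPKM, 16 of 21 fell and 3 rose. Mmp2 and its activator Mmp14 fell by 1.80 and 1.79. Mmp13, a collagenase, stood at 1.34 and 1.14 RPKM in VP, against 0.0559 and 0.0925 RPKM in DMSO (log2 change 1.06), and Mmp3 rose by 0.76 and the urokinase receptor Plaur by 0.77. Of 12 tested Adamts genes, proteases of the matrix with thrombospondin repeats, 11 fell and 0 rose, with Adamts12 at 0.648 and 0.51 RPKM in VP, against 6.65 and 6.59 RPKM in DMSO (log2 change -2.27). Fn1, fibronectin, stood at 18.7 and 19.5 RPKM in VP, against 18.1 and 18.9 RPKM in DMSO, and did not pass (log2 change 0.04, adjusted p = 0.64).

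Of 24 integrins and adhesion receptors, 21 fell and 1 rose. Of the 24, 3 reached the minimum only through the DMSO libraries and 1, Itgb7, only through the VP libraries. Without a minimum 23 of 28 fell and 2 rose. Sdc1, a cell surface proteoglycan, stood at 4.41 and 3.44 RPKM in VP, against 24 and 21.2 RPKM in DMSO (log2 change -2.26), and the collagen-binding integrin Itga1 at 3.21 and 2.41 RPKM in VP, against 14.8 and 14.1 RPKM in DMSO (log2 change -2.03). Cdh2, N-cadherin, fell by 1.91. Itgb7, an integrin chain known from lymphocytes, rose, at 1.24 and 1.17 RPKM in VP, against 0.168 and 0.106 RPKM in DMSO (log2 change 0.96). All 20 tested protocadherin genes fell, with a median of -0.81, and Pcdhb16 stood at 3.03 and 2.91 RPKM in VP, against 12.1 and 12.2 RPKM in DMSO (log2 change -1.73). Of the 20, 6 reached the minimum only through the DMSO libraries, so the count is a description only, and without a minimum 31 of 60 fell and 1 rose, with a median of -0.12, beside 27.3% lower of all genes. The Pcdhb genes are close copies in a single cluster, so their reads may be shared and they are not independent. Actin genes of the SRF and MRTF list moved less, with 10 of 30 lower and 4 higher, or 2 higher without VP replicate 2 or DMSO replicate 2, and a median of -0.16.

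Receptors for growth factors and morphogens fell as a class. Of 24 tested growth factor receptors, 23 fell and 1 rose, with a median of -1.01. Egfr averaged 4.18 ± 0.75 RPKM in VP and 24.2 ± 0.746 RPKM in DMSO (SD, n = 2 each, log2 change -2.29, adjusted p = 1.9e-09). Pdgfrb averaged 2.71 ± 0.281 RPKM in VP and 13.6 ± 0.501 RPKM in DMSO (log2 change -1.98), and Igf1r fell by 1.52. The receptor that rose was Osmr, for oncostatin M, at 20.3 and 22.3 RPKM in VP, against 13.3 and 9.98 RPKM in DMSO (log2 change 0.83). Insulin-like growth factor genes followed, with 6 of 7 lower and Igfbp4 higher by 1.25. Of the 7, 1, Igfbp4, reached the minimum only through the VP libraries.

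Of 25 Wnt genes tested, 22 fell and 2 rose, with a median of -0.74. Of the 25, 3 reached the minimum only through the DMSO libraries. Without a minimum 22 of 38 fell and 3 rose, with a median of -0.49. The Frizzled receptor Fzd2 averaged 2.34 ± 0.56 RPKM in VP and 23.3 ± 1.62 RPKM in DMSO (SD, n = 2 each, log2 change -2.88), and Fzd8, Fzd1 and Fzd7 fell by 2.44, 2.05 and 1.93. Wnt5a, a noncanonical ligand, stood at 0.883 and 0.829 RPKM in VP, against 6.15 and 6.39 RPKM in DMSO (log2 change -1.97), while Axin1, a scaffold of beta-catenin degradation, rose by 0.47. Of 34 TGF-beta and BMP genes, 20 fell and 5 rose, and 10 rose under median-ratio scaling. The largest fall was in Smad6, given above. The ligands Bmp4, at 4.16 and 3.38 RPKM in VP, against 27.2 and 24 RPKM in DMSO (log2 change -2.48), and Tgfb3, which fell by 2.28, were lower, as were the antagonist Fst and the coreceptor Tgfbr3, by 1.48 and 1.21. The signal transducers Smad1 and Smad2 rose by 0.69 and 0.47, and so did Skil and Smurf1, which restrain the signal, by 0.77 and 0.70. Genes that restrain the signal thus moved in both directions.

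Guidance molecules fell too, with 15 of 17 semaphorins and plexins lower and 11 of 13 ephrin and Eph genes. Of the 17, 3 were over the minimum only through the DMSO libraries and 1 only through the VP libraries. Sema3a, a secreted repellent of axons, stood at 0.825 and 0.617 RPKM in VP, against 8.13 and 7.34 RPKM in DMSO (log2 change -2.34). Epha4, an ephrin receptor, stood at 0.832 and 0.72 RPKM in VP, against 12.2 and 10.7 RPKM in DMSO (log2 change -2.81).

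Hox genes keep the positional identity of fibroblasts. The 9 tested Hox genes all belonged to the Hoxa cluster, and all 9 fell, with a median of -1.48. Of these, 3 reached the minimum only through the DMSO libraries, so the count is a description only, and without a minimum 9 of 21 Hox genes fell and 2 rose, with a median of -0.01. Hoxa5 stood at 0.915 and 0.897 RPKM in VP, against 6.91 and 6.84 RPKM in DMSO (log2 change -2.05, adjusted p = 9.5e-10). Hoxa2 stood at 1.77 and 1.98 RPKM in VP, against 10.8 and 10.8 RPKM in DMSO (log2 change -2.04), and Hoxa7 at 1.33 and 1.38 RPKM in VP, against 8.53 and 8.79 RPKM in DMSO (log2 change -2.03). In each of these the libraries of a pair lay close together and the pairs far apart. The log2 changes of 5 others lay between -1.63 in Hoxa6 and -1.07 in Hoxa4. Hoxa4, at 0.233 and 0.326 RPKM in VP, against 1.59 and 1.78 RPKM in DMSO, had 11 and 13 reads in VP libraries behind its values. These genes are neighbours in 1 cluster and are not independent.

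**Figure D4:**
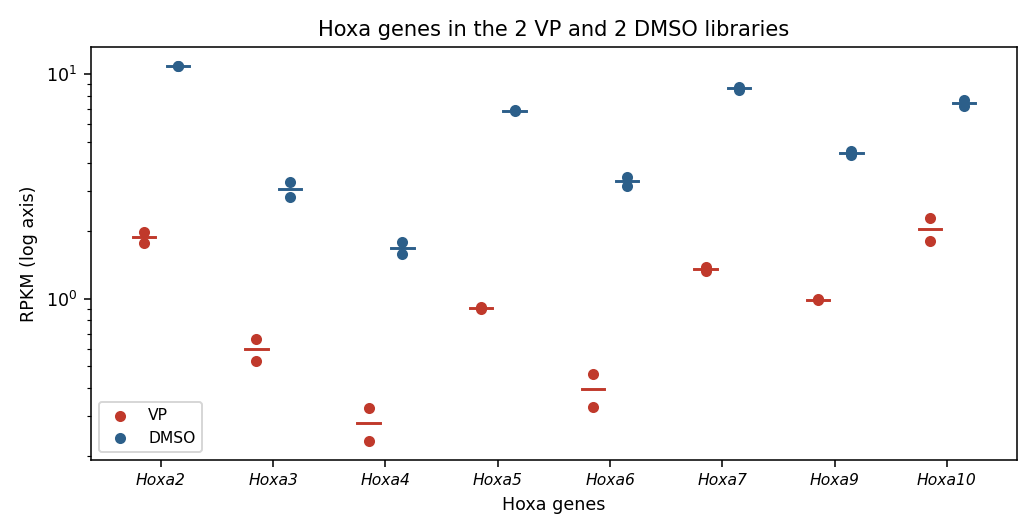
RPKM (log axis) of 8 of the 9 tested Hoxa genes in the 2 VP and 2 DMSO libraries, with each point a library. The VP libraries lie below the DMSO libraries for these 8 genes, from Hoxa2 at 1.77 and 1.98 RPKM in VP, against 10.8 and 10.8 RPKM in DMSO, to Hoxa10 at 2.28 and 1.8 RPKM in VP, against 7.69 and 7.18 RPKM in DMSO.

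Other transcription factor families split by member. Of 20 Fox genes, 9 rose and 8 fell. Foxo1 and Foxo3, which act downstream of insulin signalling, rose by 1.13 and 1.22, while their relative Foxo4 stood at 2.15 and 2 RPKM in VP, against 8.26 and 7.44 RPKM in DMSO (log2 change -1.52). Foxs1 stood at 5.54 and 5.69 RPKM in VP, against 0.57 and 0.566 RPKM in DMSO (log2 change 2.08). Of 18 Klf and Sp genes, 9 rose and 6 fell, with Klf10 higher by 1.82 and Klf3 lower by 0.89. Zinc finger genes named Zfp leaned down, with 164 of 298 lower and 63 higher and a median of -0.27. Of 17 clock genes, 13 rose and 2 fell. Per2, a repressor of the clock, stood at 4.04 and 3.86 RPKM in VP, against 0.827 and 0.977 RPKM in DMSO (log2 change 1.38), and Bhlhe40, Nfil3 and Ciart, which are repressors as well, rose by 2.35, 2.08 and 2.52. Tef, an activator with which Nfil3 competes for its site, stood at 6.06 and 6.75 RPKM in VP, against 13.9 and 14.1 RPKM in DMSO (log2 change -1.02).

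Oxidative, xenobiotic and metal responses rose in part. Of 30 NRF2 genes, 18 rose and 5 fell. Srxn1, sulfiredoxin, stood at 45.1 and 48.8 RPKM in VP, against 12.6 and 9.68 RPKM in DMSO (log2 change 1.99), and Osgin1 rose by 2.04. Gstm1, a glutathione transferase with close copies, went the other way, at 5.61 and 5.77 RPKM in VP, against 14.1 and 11.7 RPKM in DMSO (log2 change -1.05), as did the epoxide hydrolase Ephx1, by 1.07. Of 7 genes of the aryl hydrocarbon receptor battery, 5 rose and 0 fell. Of the 7, 1 reached the minimum only through the VP libraries. Without a minimum 9 of 12 rose and 0 fell, with a median of 0.30. Among those that rose was Tiparp, a feedback inhibitor of the receptor, at 34.9 and 35.3 RPKM in VP, against 8.87 and 8.73 RPKM in DMSO (log2 change 1.88). Cyp1b1, another gene of that battery, did not pass the test (adjusted p = 0.93). It stood at 43.7 and 45.1 RPKM in VP, against 45.7 and 42.3 RPKM in DMSO. Whether values at such levels are capped was not tested. The metallothionein Mt2 stood at 33 and 37.2 RPKM in VP, against 9.14 and 6.74 RPKM in DMSO (log2 change 2.02).

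Verteporfin is itself a porphyrin, so the genes of heme and iron were described by role. Of 29 tested, 11 rose and 9 fell, with a median of 0.01. Of the 29, 1, Slc40a1, reached the minimum only through the VP libraries, and without a minimum 9 of 31 rose and 8 fell. Slc40a1, the iron exporter ferroportin, stood at 2.56 and 2.39 RPKM in VP, against 0.348 and 0.335 RPKM in DMSO (log2 change 1.37), and Slc48a1, a heme transporter, and Slc25a37, which brings iron into mitochondria, rose by 0.80 and 1.08. Enzymes of heme synthesis were among the falls, with Urod at 5.46 and 5.65 RPKM in VP, against 11.6 and 11.2 RPKM in DMSO (log2 change -0.92), and Fech lower by 0.67. Cytosolic heat shock genes did not move as a group, with 8 of 20 higher and 3 lower, and 14 higher under either other scaling or 5 without DMSO replicate 2. Hspa4l rose by 1.42, while Hspa1b and Hspa1a, near-identical copies whose reads may be shared, fell by 1.22 and 0.86.

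The lists of cell cycle genes held calls in both directions. Of 16 cyclins and cyclin-dependent kinases, 13 fell and 1 rose, namely Cdk6 at 8.81 and 6.45 RPKM in VP, against 3.9 and 3.03 RPKM in DMSO (log2 change 0.94). Ccng2 stood at 4.77 and 4.62 RPKM in VP, against 18.3 and 18.2 RPKM in DMSO (log2 change -1.76), and the mitotic kinase Cdk1 fell by 0.63. The inhibitors did not share a direction. Cdkn2b rose by 0.70, while Cdkn2c, Cdkn1b and the pocket protein gene Rbl2 fell by 0.82, 0.53 and 1.34, and E2f1 fell by 1.05. Of 48 DNA replication genes, 10 rose and 19 fell, and 18 rose under quantile normalization. Dbf4, the activator of the kinase that fires origins, stood at 4.92 and 4.57 RPKM in VP, against 1.61 and 1.73 RPKM in DMSO (log2 change 1.11), while the origin helicase gene Gins2 fell by 0.91 and Rrm2 by 0.87. Of 34 mitosis genes, 5 rose and 14 fell. Without DMSO replicate 2 the number that rose was 2, and under quantile normalization 11 rose and 8 fell. The shares of replication and mitosis genes that fell lay near the 41.1% of all genes, and nothing particular to these lists is read from them.

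Of 26 p53 targets, 13 rose and 10 fell. Fas, the death receptor, stood at 11.4 and 11.9 RPKM in VP, against 2.92 and 2.55 RPKM in DMSO (log2 change 1.76), Plk3 rose by 2.07 and Sesn2, which also responds to amino acid stress, by 1.70, while Sesn1 and Phlda3 fell by 1.03 and 0.99. In the Bcl2 family 7 of 14 genes fell and 1 rose. The gene that rose was Bax, the effector of mitochondrial permeability, by 0.54, and Bmf, a BH3-only killer, stood at 0.927 and 0.754 RPKM in VP, against 3.41 and 3.59 RPKM in DMSO (log2 change -1.29).

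Ribosome biogenesis factors rose, with 53 of 59 higher and 1 lower and a median of 0.69. Heatr1, needed for transcription of ribosomal RNA, stood at 16.8 and 18 RPKM in VP, against 6.91 and 6.11 RPKM in DMSO (log2 change 1.29, adjusted p = 3.7e-08), and Rrs1 and Nle1, assembly factors of the large subunit, rose by 1.24 and 1.24. Of 79 cytosolic ribosomal protein genes, 3 were called higher and 0 lower, with a median of 0.00. Under quantile normalization 18 were higher and 3 lower, and without VP replicate 2 or DMSO replicate 2 only 1 was higher. Their summed level was 2400 and 2730 RPKM in VP, against 2630 and 2470 RPKM in DMSO. Whether high values among them are capped was not tested, so the contrast with the biogenesis factors is a description only. Of 76 mitochondrial ribosomal protein genes, 27 rose and 16 fell, and 42 rose under the other scalings, with Mrpl38 higher by 0.75 and Mrpl18 lower by 1.04. Of 75 respiratory chain subunits, 2 rose and 29 fell, and 19 fell without VP replicate 1, while 8 rose under median-ratio scaling.

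Membrane and lipid genes fell more often than they rose. Of 41 autophagy and lysosome genes, 23 fell and 9 rose. The cathepsin Ctsb stood at 8.49 and 7.98 RPKM in VP, against 18.4 and 17.4 RPKM in DMSO (log2 change -1.03), while Tfe3 and Mitf, factors that drive lysosomal genes, rose by 0.95 and 1.07. Of 32 genes of cholesterol and fatty acid synthesis, 21 fell and 2 rose, or 4 under either other scaling and 1 without VP replicate 2 or DMSO replicate 2. Dhcr7, the last step of cholesterol synthesis, stood at 1.63 and 1.43 RPKM in VP, against 5.73 and 4.43 RPKM in DMSO (log2 change -1.26). Of 155 solute carrier genes, 92 fell and 30 rose, the rises led by the glucose transporter gene Slc2a6 at 14.1 and 14.9 RPKM in VP, against 1.59 and 1.44 RPKM in DMSO (log2 change 2.62).

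The cells were checked against markers. Of 15 fibroblast markers, 11 were over the minimum, of which 8 fell and 1, Twist2, rose, and their summed level was 160 and 165 RPKM in VP, against 274 and 267 RPKM in DMSO. Vim, vimentin, stood at 46.9 and 54.2 RPKM in VP, against 57 and 54.4 RPKM in DMSO and did not pass. Whether values at such levels are capped was not tested. Thy1, a marker of many fibroblasts, was at 0.0187 and 0.0221 RPKM in VP, against 0.0215 and 0 RPKM in DMSO, and so was nearly absent in both groups. Of 13 macrophage and leukocyte markers, 3 were over the minimum, at a summed 13.4 and 12.9 RPKM in VP, against 4.28 and 3.52 RPKM in DMSO. They included Cd14, at 6.75 and 6.32 RPKM in VP, against 1.8 and 1.28 RPKM in DMSO, and Cd74, which rose by 1.53, beside the rise of the interferon and NF-kB lists. The defining leukocyte marker Ptprc averaged 0 RPKM in VP and 0.00519 RPKM in DMSO. None of the epithelial, endothelial and adipocyte markers reached the minimum.

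The drug effect recurred in the cells given OHT, measured in 4 other libraries. These entered the same model and its estimate of the spread, so the tests of both settings are not independent. There the test called 7231 genes (65.2%), 26.0% higher and 39.3% lower in VP + OHT than in DMSO + OHT. Of the genes called higher without OHT 79.2% were called higher with it, and of those called lower 85.3% were called lower with it. The shares taken from the side of the OHT libraries were 83.9% and 89.3%. Opposite calls were made for 24 genes higher and 19 genes lower without OHT. The difference between both effects was itself called for 453 genes (4.09%), positive in 2.52% and negative in 1.57% of all genes. Of these, 216 changed in 1 direction in both settings and by more without OHT, 108 by more with OHT, and 129 had opposite signs. The count of 453 was 14 without an expression minimum, 131 without VP replicate 2, 205 without DMSO replicate 2, and 174 and 258 without VP + OHT replicate 1 and replicate 2.

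Such a difference was called for 25 of 59 ribosome biogenesis factors and 11 of 48 DNA replication genes. Rrp12, a ribosome export factor, stood at 14.2 and 14.6 RPKM in VP, against 3.6 and 2.98 RPKM in DMSO, and at 16.3 and 16.8 RPKM in VP + OHT, against 9.73 and 8.1 RPKM in DMSO + OHT. The difference of its log2 changes was 1.02 (adjusted p = 0.0041). Heatr1 stood at 20.3 and 20.3 RPKM in VP + OHT, against 13.8 and 12.8 RPKM in DMSO + OHT, and the difference was 0.72 (adjusted p = 0.0065). Both differences were called under 16 of 17 alternatives and not without an expression minimum. In both genes the VP libraries lay at a similar level without and with OHT, and the DMSO libraries were higher with OHT.

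**Figure D5:**
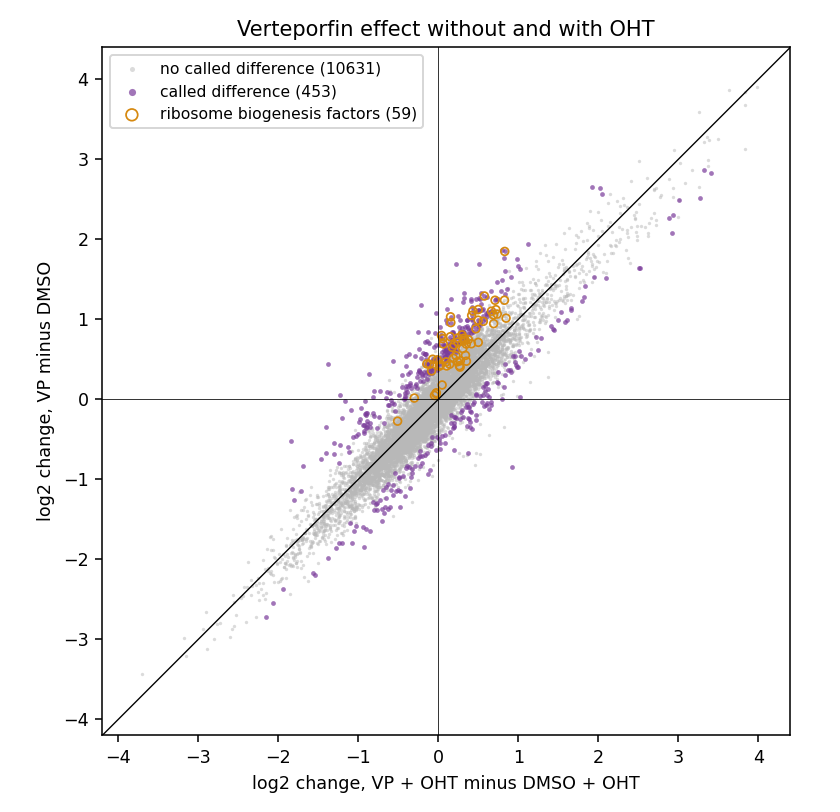
Log2 change of each tested gene, VP minus DMSO on the vertical axis and VP + OHT minus DMSO + OHT on the horizontal axis, with a line of equal change and the 453 genes with a called difference in colour and ribosome biogenesis factors ringed. Most genes lie along the line, and 85.3% of the genes called lower without OHT were called lower with it.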

How the data were processed

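Libraries of total RNA without poly(A) selection were aligned by the authors to mm9 with TopHat2 2.0.8 and counted with featureCounts 1.4.5-p1. The deposited per-sample values are RPKM, made by the authors, and values of 1 or more had lost their decimal sign (46.4% of 260052 values). The sign was restored as the place that gives whole reads for a plausible gene length, checked against the digits of the mean normalized counts the authors gave with DESeq2 (99.94% matched, against 90.34% before that check was used to place the sign), leaving 21574 genes. Among possible places, those that brought the 2 replicates of a group closer were preferred, and high levels were disfavoured. A 10-fold misplacement of a whole gene would escape the digit check, and 130 genes had an ambiguous level. The authors' fold changes and p-values were not used.

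Genes whose mean reached 0.5 RPKM over the 4 VP and DMSO libraries were fitted with limma 3.58.1 in R 4.3.3 on log2(RPKM + 1), in 1 model of 8 libraries (DMSO, DMSO + OHT, VP, VP + OHT; 4 residual degrees of freedom), with moderated variances and a mean-variance trend, two-sided, at an adjusted p of 0.05. The values were RPKM and not counts, so DESeq2, which the sources name, was not run. The script was tested on simulated data. The genes and lists were chosen with earlier results of these data known. Named genes were the 20 largest changes each way, up to 5 members each way of each list, and a fixed set of single genes. Others were named for a promoter match or to describe the Hoxa cluster, and some genes are not reported here. Alternatives were a pseudocount of 0.1, no minimum or 2 RPKM, other scalings, other libraries in the fit, voom on restored reads, a replicate block, unambiguous genes only and leaving out each library. Strand was not marked by the kit, so overlapping antisense genes cannot be told apart. Promoters came from RefSeq tables on GRCm38.p6, matched by symbol for 8593 of 11084 genes (77.5%).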

Additional observations from a re-analysis of the deposited data

Results flagged for a closer look

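The effect of VP differed between cells without and with OHT, by limma's test of the difference itself, in 9 of the 198 genes named in the text, a share near the 4.09% of all genes tested. It was larger without OHT in Rrp12 (difference of the log2 changes 1.02, adjusted p = 0.0041), Heatr1 (0.72), Dbf4 (0.62), Nle1 (0.53) and Twist2 (0.72, adjusted p = 0.048). It was smaller without OHT in Myc (-0.86, adjusted p = 0.0041), Nfil3 (-0.84), Egr1 (-0.77) and Hspa4l (-0.42, adjusted p = 0.05 after rounding, just under the threshold). All 9 genes rose with VP in both settings or had a positive estimate there, and the sizes differed. Of 17 alternatives that give a difference, 16 called it for Rrp12, Heatr1, Dbf4, Myc, Nfil3 and Egr1, the exception being the fit without an expression minimum, 14 called it for Nle1, and 8 each called it for Hspa4l and Twist2.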

How the results depend on the processing

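The count of 7607 genes that differed between VP and DMSO stayed within 1.5 times of that value under all 18 alternatives tried, and was 7584 with a pseudocount of 0.1, 8386 without an expression minimum, 7942 with RPKM scaled by median ratios, 8226 under quantile normalization, and 7666 with limma voom on restored reads. Leaving out each library in turn gave 6692 to 7763 genes, 2532 to 3119 higher and 3933 to 4644 lower, and 6121 to 7275 genes in the OHT libraries. Of the 491 named genes that passed, 459 to 490 passed without a library, and list members past the test numbered 1389 to 1592, against 1549 in all. The count of genes with a called difference between the effects without and with OHT was less stable, 453 against 14 without an expression minimum, 1066 under quantile normalization and 131 to 558 leaving out a library, the lowest without VP replicate 2. The cause was not tested. A replicate block gave 7718 genes between VP and DMSO and 610 for the difference. Deviations of samples of the same number correlated at 0.288 between DMSO and DMSO + OHT and at -0.056 to 0.0775 between the other groups, which was not taken as pairing, and the block lost no call of a named gene. Directions reversed in genes that did not pass: Cyr61, Yap1 and Tead1 under median-ratio scaling (0.00483, 0.000787 and 0.0239), and, leaving out a library, Cyp1b1 (-0.0428 to 0.0678), Csf1 (-0.0602 to 0.117) and Pycr1 (-0.00767 to 0.105). With 2 libraries a group, and with values of 1 or more restored, single genes near the threshold or under 1 RPKM are the least firm.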

Other observations

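Genes on the X chromosome stood apart from the autosomes in their direction. Of 358 tested X-linked genes, 54.5% were called lower and 17.6% higher with VP, with a median log2 change of -0.24. Of 10714 autosomal genes, 40.7% were called lower and 27.9% higher, with a median of -0.07. The X-linked median was -0.16 with median-ratio scaling, -0.15 with quantile normalization and -0.19 in the OHT libraries. No test was run on these sets, which were chosen after the values were seen, and the cells' number of X chromosomes was not looked at.

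Small nucleolar RNA genes, most of which lie in introns of other genes and guide the modification of ribosomal RNA, leaned the other way. Of 81 tested, 53.1% were called higher and 0 lower, with a median of 0.35, and of 0.21 in the OHT libraries. Reads of such short genes can come from their host transcripts, which was not tested. The 593 genes that span at least 160 kb were called lower in 50.4% and higher in 23.4%, with a median of -0.21, while the 936 genes that span under 3 kb were called lower in 30.1% and higher in 25.3%, with a median of -0.01. The median of the long genes was -0.11 in the OHT libraries. The long genes were also low in level, with a median of 3.4 RPKM, against 6.0 RPKM over all genes tested. Of all genes at 2 to 5 RPKM, 47.1% were called lower, and span and level were not separated. The share called lower did not rise steadily with span, at 44.7% for 10 to 20 kb and 39.3% for 20 to 40 kb. Under quantile normalization the medians were -0.04 in the long and 0.07 in the short genes.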
